A study of Mus musculus with 30 samples.

Results

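The genes described here carry long-chain fatty acids into muscle cells and through oxidation in the mitochondrion. The set was fixed by name, as 32 genes of fatty acid uptake, release, activation, transfer into mitochondria, beta-oxidation, electron transfer and uncoupling. Levels came from an Affymetrix set of 2 chips, A and B. For 29 of the 32 genes at least 1 probe set was annotated to that gene alone, 60 probe sets in all, and each gene was read from its brightest such probe set, with chip A first. This put 28 genes on chip A and Acsl3 on chip B. Acsl1, Cpt1b and Ucp2 had no probe set annotated to them alone and are not analysed here. Of the 29, 27 passed the filter on dim probe sets and were tested, among 11772 tested genes of 18193 with such a probe set in the whole series. Fabp4 and Lipe lay below the filter.

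The samples were mouse cell cultures with the word leg in their titles, collected at 0, 4, 12, 24 and 48 h. Each hour had 3 replicates, with 1 array of each chip per replicate, 30 arrays in all. The labels name no strain, genotype, sex, age, medium or treatment, and do not say what happened at 0 h. Nor do they tie replicates to separate cultures or animals, so the p-values here measure the spread between arrays, which may be technical. Only 3 arrays stand behind each hour on a chip, and that number limits the precision.

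Muscle cells burn fatty acids as a main fuel. The acids are freed from triglyceride, taken up with the help of membrane and cytosolic binding proteins, joined to coenzyme A, passed into the mitochondrion as carnitine esters, and shortened there in a repeated cycle of dehydrogenation, hydration, dehydrogenation and thiolysis. The electrons pass through the electron transfer flavoprotein to the respiratory chain, and many genes of the route are known targets of PPAR and ERR nuclear receptors.

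The cultures carried muscle transcripts at every hour. All 10 muscle markers were tested. Over all arrays 4 were higher at 24 h (beside 1.65% of all tested genes) and 3 at 48 h (beside 1.33%) against 0 h, with 0 lower. In replicates 1 and 2, 6 were higher at 24 h (beside 6.23%) and 6 at 48 h (beside 5.38%). There 1 was lower at 48 h (beside 6.61%), the muscle factor Myod1 (log2 change -0.66, adjusted p = 0.00206). Myog, a transcription factor of muscle differentiation, averaged 10320, 10786, 11994, 10965 and 8455 at 0, 4, 12, 24 and 48 h (mean intensity, n = 3 per hour). Of 7 adipocyte markers 4 had a probe set, and Adipoq averaged 16.2, 21.3, 18.9, 13.8 and 17.9 at the same hours. Lep and Cidec, 2 further adipocyte genes, stayed at means of 12.1 or less and 13.6 or less. Retn, the only adipocyte marker above the filter, averaged 152, 123, 161, 108 and 141. Of the endothelial markers, Pecam1 averaged 29.3, 25.7, 40.3, 31.5 and 36.8 and Cdh5 31.1, 43.6, 49.3, 32.8 and 57.6, below the filter. Kdr, at 135, 120, 185, 133 and 156, and Tek, at 97.4, 110, 164, 134 and 143, were brighter and passed it. In bulk RNA, fewer cells of a type and less RNA per cell cannot be told apart. Replicate 3 stood apart from replicates 1 and 2. All 5 measured genes of dividing cells were higher in replicate 3, beside 14.9% of all tested genes. Their summed intensities were 7075 to 9392 in replicate 3 and 2102 to 5109 in replicates 1 and 2. Of 10 muscle markers 4 were lower in replicate 3 (beside 15.7% of all tested genes), and 0 were higher. The fit behind these calls counted the arrays of replicate 3 as separate, although they carry the same number. Calls below are given over all arrays and, where they differ, over replicates 1 and 2 alone. For genes of the set, a fit with replicate number as a block (replicate block) is added where it gained a call against 0 h. The labels do not tie a replicate number to a culture.

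Few genes of the set were called over all arrays, and the set as a whole was not tested. Cd36 and Fabp3, the membrane and the cytosolic fatty acid binding proteins, rose with time, Echs1, the enoyl-CoA hydratase of beta-oxidation, fell, and the other 24 tested genes did not pass the test over all arrays. Of the 27 genes, 3 passed the moderated F test across the 5 hours (Cd36, Fabp3 and Echs1), beside 2.06% of all tested genes. Cd36 passed the filter on dim probe sets only through its late hours, so its calls are not free of the filter. At 4 h against 0 h limma called 0 of 27 and 0% of all genes, with 1 of the 27 at an unadjusted p under 0.05. At 12 h against 0 h it called 0 of 27 and again 0%, with 1 at an unadjusted p under 0.05. At 24 h, 1 gene was higher (Fabp3, beside 1.65% of all genes) and 1 was lower (Echs1, beside 0.96%). At 48 h, 2 were higher (Cd36 and Fabp3, beside 1.33%) and 1 was lower (Echs1, beside 0.756%). Between 48 h and 24 h limma called 0 of 27, beside 0.034% of all genes called. There 2 of the 27 had an unadjusted p under 0.05. Against 0 h, 6 of the 27 had an unadjusted p under 0.05 at 24 h and 4 at 48 h. The share of all genes with such an unadjusted p was not counted, so these counts have no background. The comparisons with 0 h share the 0 h arrays.

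Changes are given as differences of log2(intensity + pseudocount), a scale that understates the change of dim genes. The median log2 change of the 27 genes was -0.03 at 4 h, -0.01 at 12 h, -0.07 at 24 h and -0.13 at 48 h, each against 0 h. Over all 11772 tested genes it was -0.03, -0.01, -0.05 and -0.03 at the same hours. At 48 h, 9 of the 27 log2 changes were above 0 and 18 below, beside 46% above 0 among all genes. The ranking of all tested genes at 48 h put Cd36 behind 7 genes and Fabp3 behind 18, whereas 301 genes fell further than Echs1. Cd36 entered this ranking through its late hours, which lifted it over the filter, so its place is no separate support for its rise.

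**Figure D1:**
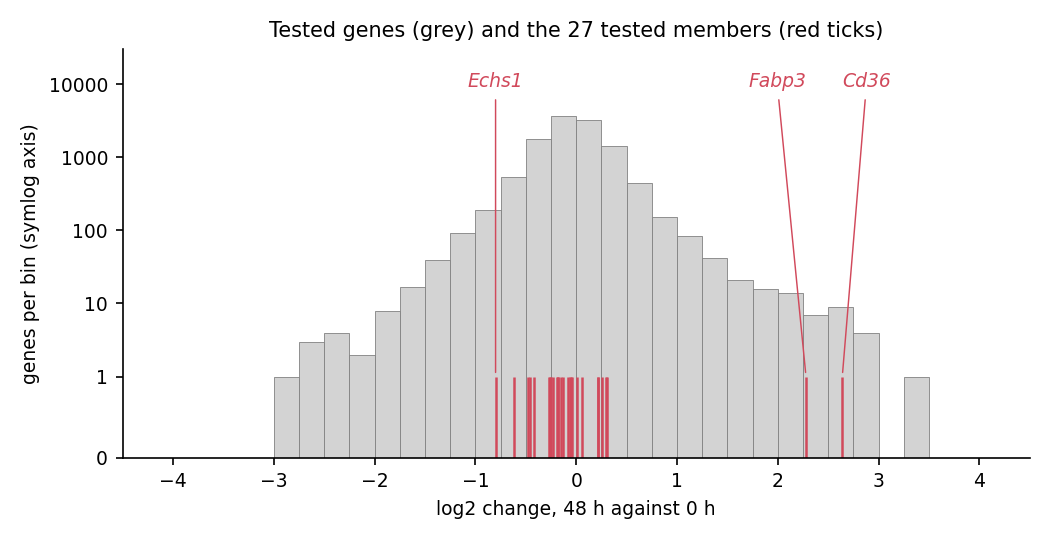
Log2 change at 48 h against 0 h, with the number of tested genes per bin of 0.25 on a symlog axis in grey and each of the 27 tested fatty acid genes as a red tick. Cd36 (2.64) and Fabp3 (2.28) sit in the right tail, Echs1 (-0.80) lies left of the bulk, and the other 24 lie between -0.62 and 0.31.

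Over replicates 1 and 2 alone, limma called more genes, in the set and overall. The F test passed 7 of 27 (Cd36, Fabp3, Fabp5, Acsl3, Cpt1a, Acadl and Echs1), beside 16.3% of all genes. At 4 h it called 0 of 27, beside 0.136% of all genes called, and 2 of the 27 had an unadjusted p under 0.05. At 12 h, 0 were higher (beside 1.77% of all genes, and with 2 of the 27 at an unadjusted p under 0.05) and 2 were lower (Echs1 and Fabp5, beside 1.73%). At 24 h, 3 were higher (Cd36, Fabp3 and Acadl, beside 6.23%) and 4 were lower (Cpt1a, Cpt2, Echs1 and Fabp5, beside 7.42%). At 48 h, 3 were higher (Cd36, Fabp3 and Acadl, beside 5.38%) and 3 were lower (Acsl3, Cpt1a and Echs1, beside 6.61%). From 24 h to 48 h, 2 were higher at 48 h (Cd36 and Fabp5, beside 2.3%) and 1 was lower (Acsl3, beside 2.48%).

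Promoter sequence is shown for the 3 genes called over all arrays, as the 250 bases before the RefSeq transcription start (GRCm38.p6), written along the gene's own strand. Capitals mark matches to AGGTCA, the half-site of nuclear receptors, and to GGGCGG, the GC box, on either strand.
Cd36, chr5:17835897-17836146, minus strand: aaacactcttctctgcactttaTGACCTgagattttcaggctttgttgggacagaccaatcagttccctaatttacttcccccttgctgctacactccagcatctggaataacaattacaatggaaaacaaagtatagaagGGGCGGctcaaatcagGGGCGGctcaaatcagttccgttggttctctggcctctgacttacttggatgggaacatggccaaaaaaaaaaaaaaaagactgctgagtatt
Fabp3, chr4:130308488-130308737, plus strand: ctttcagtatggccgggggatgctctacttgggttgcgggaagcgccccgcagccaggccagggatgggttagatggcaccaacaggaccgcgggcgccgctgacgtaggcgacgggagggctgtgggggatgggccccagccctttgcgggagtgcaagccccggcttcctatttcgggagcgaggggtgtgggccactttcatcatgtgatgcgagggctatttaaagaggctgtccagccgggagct
Echs1, chr7:140116422-140116671, minus strand: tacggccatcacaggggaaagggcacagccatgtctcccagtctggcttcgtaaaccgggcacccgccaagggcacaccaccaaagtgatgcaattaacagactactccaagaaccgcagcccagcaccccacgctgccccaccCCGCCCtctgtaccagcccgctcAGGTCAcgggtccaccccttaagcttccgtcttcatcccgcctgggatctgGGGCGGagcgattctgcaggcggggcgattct
The windows differed in base composition: GC content was 43.2% for Cd36, 64.8% for Fabp3 and 62.8% for Echs1, beside a median of 52.4% over all 32851 windows. Cd36 held AGGTCA 228 bases before the start and GGGCGG 109 and 93 bases before it. Echs1 held AGGTCA 83 bases before the start and GGGCGG 106 and 32 bases before it. Fabp3 held neither. Among 29 windows of 25 listed genes, AGGTCA was found in 6, beside 14% of all windows, and GGGCGG in 19, beside 32.7%. A direct repeat of AGGTCA with 1 base between was in 0 of 29, beside 0.0335% of all windows. TCAAGGTCA, which overlaps AGGTCA, was in 0 of 29, beside 0.387%, and TATTTNTA, the MEF2 core, was in 0 of 29, beside 5.44%. TATAAA was in 0 of 29, beside 12.4%, and CAGCTG, an E-box, in 7, beside 13%. The half-site, the GC box, the E-box and TATAAA were added after the other motifs had been counted. A match is a description of letters, not a binding site.

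Uptake and intracellular binding held the largest rises of the set. Cd36 encodes a membrane glycoprotein that takes up long-chain fatty acids. Its intensity in replicates 1, 2 and 3 was 33.2, 34.2 and 62.0 at 0 h, 25.7, 43.5 and 71.4 at 4 h, 57.0, 48.0 and 124 at 12 h, 169, 126 and 135 at 24 h and 512, 559 and 246 at 48 h. All arrays at 24 h and at 48 h lay above all arrays at 0 h, and those at 48 h lay above those at 24 h. The mean at 48 h was 10.2 times, and that at 24 h 3.33 times, the mean at 0 h. The log2 change was 2.64 at 48 h (SE 0.33, adjusted p = 0.00225) and 1.27 at 24 h (SE 0.33, adjusted p = 0.0569). Over replicates 1 and 2 alone it was 3.16 at 48 h (adjusted p = 3.76e-06) and 1.48 at 24 h (adjusted p = 0.00139). Replicate 3 alone gave 1.59 and 0.85. With the replicate block the adjusted p at 24 h was 0.0171. Over all the alternatives tried, the adjusted p at 24 h ran from 0.00139 to 0.236. The change was larger in replicates 1 and 2 than in replicate 3 at both hours, and that difference was not tested. Cd36 passed the filter narrowly, with a mean log2 level of 7.05 beside a limit of 6.98, and its mean of 43.1 at 0 h lay under the limit's intensity of 96.7, so it was tested because of its late hours. Both of its other chip A probe sets were below the filter. One of them averaged 32.3, 29.8, 64.6, 143 and 430 at 0, 4, 12, 24 and 48 h, and the other 23.8, 24.3, 23.6, 36.5 and 86.7, so all 3 were highest at 48 h. Cd36 is also made by adipocytes, macrophages and endothelial cells. Summed adipocyte markers were 144 to 206 at 48 h and 168 to 203 at 0 h, summed endothelial markers 456 to 685 and 389 to 497, and summed macrophage and leukocyte markers 622 to 907 and 550 to 765. Tested were 1 of 7 adipocyte, 3 of 7 endothelial and 3 of 8 macrophage and leukocyte markers. None of these was called at 24 or 48 h, over all arrays or over replicates 1 and 2. So few tested markers say little about these cells, and their part in the Cd36 rise was not tested.

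Fabp3 encodes the heart and muscle fatty acid binding protein of the cytosol. In replicates 1, 2 and 3 its intensity was 110.3, 156 and 245 at 0 h, 125, 137 and 242 at 4 h, 216, 214 and 426 at 12 h, 945, 774 and 498 at 24 h and 1256, 1474 and 389 at 48 h. The arrays at 24 h and 48 h lay above all those at 0 h, with replicate 3 lowest at both late hours although it was highest at 0, 4 and 12 h. The mean was 6.10 times that of 0 h at 48 h and 4.34 times at 24 h. The log2 change was 2.28 at 48 h (SE 0.44, adjusted p = 0.0169) and 1.95 at 24 h (SE 0.44, adjusted p = 0.027). Without replicate 3 it was 3.11 at 48 h (adjusted p = 5.48e-07) and 2.46 at 24 h, and replicate 3 gave 0.61 and 0.94. The call was lost at 24 h without replicate 1 or 2 of 0 h or of 24 h (adjusted p = 0.114 to 0.146), and at 48 h without replicate 1 or 2 of 0 h or of 48 h (adjusted p = 0.0843 to 0.0971). The chip B probe set of Fabp3 did not show the rise: it averaged 562, 589, 677, 529 and 555 at 0, 4, 12, 24 and 48 h, a log2 change of 0.01 at 48 h (adjusted p = 0.995) and -0.05 at 24 h (adjusted p = 0.963). The rise therefore rests on 1 of 2 probe sets, and why they differ was not tested.

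Fabp5, the epidermal fatty acid binding protein, is also found in macrophages and dividing cells. Its intensity in replicates 1, 2 and 3 was 1849, 1853 and 3817 at 0 h, 1570, 1666 and 4123 at 4 h, 993, 922 and 4030.2 at 12 h, 1032, 1008 and 3475 at 24 h and 1722, 2152 and 2976 at 48 h. Replicate 3 was above both other replicates at every hour. Replicates 1 and 2 were lowest at 12 and 24 h and came back at 48 h. Over all arrays the log2 change was -0.61 at 24 h (adjusted p = 0.667) and -0.08 at 48 h (adjusted p = 0.971). In replicates 1 and 2 Fabp5 fell at 12 h (log2 change -0.93, adjusted p = 0.00245) and at 24 h (-0.84, adjusted p = 0.00113), and was higher at 48 h than at 24 h (0.90, adjusted p = 0.00399). A second chip A probe set of Fabp5 gave -1.36 at 24 h in the same replicates (adjusted p = 0.000198) and -0.96 over all arrays (adjusted p = 0.515). All 5 dividing cell markers fell at 24 h in the same replicates, beside 7.42% of all tested genes. Their median log2 change was -1.16, and their part in the result was not tested.

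Fabp4, the adipocyte fatty acid binding protein, was dim throughout and was not tested. Its intensity in replicates 1, 2 and 3 was 45.5, 77.7 and 52.3 at 0 h, 17.4, 71.3 and 51.4 at 4 h, 12.6, 64.6 and 54.8 at 12 h, 40.7, 26.4 and 58.6 at 24 h and 92.1, 31.3 and 44.9 at 48 h. The hours overlap, and its 3 other probe sets averaged at most 39.0 at any hour. Slc27a1, the fatty acid transport protein FATP1, averaged 176 ± 26.1, 91.6 ± 21.5, 129 ± 65.3, 115 ± 14.8 and 121 ± 31.7 at 0, 4, 12, 24 and 48 h (SD, n = 3). Its log2 change was -0.77 at 4 h, where no array overlapped with 0 h (unadjusted p = 0.015, adjusted p = 0.883), and -0.46 at 48 h (adjusted p = 0.484). The brighter chip B probe set of Slc27a1 averaged 549, 617, 591, 490 and 531 and did not show this. Its log2 change was 0.16 at 4 h (adjusted p = 0.956) and -0.03 at 48 h (adjusted p = 0.968).

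**Figure D2:**
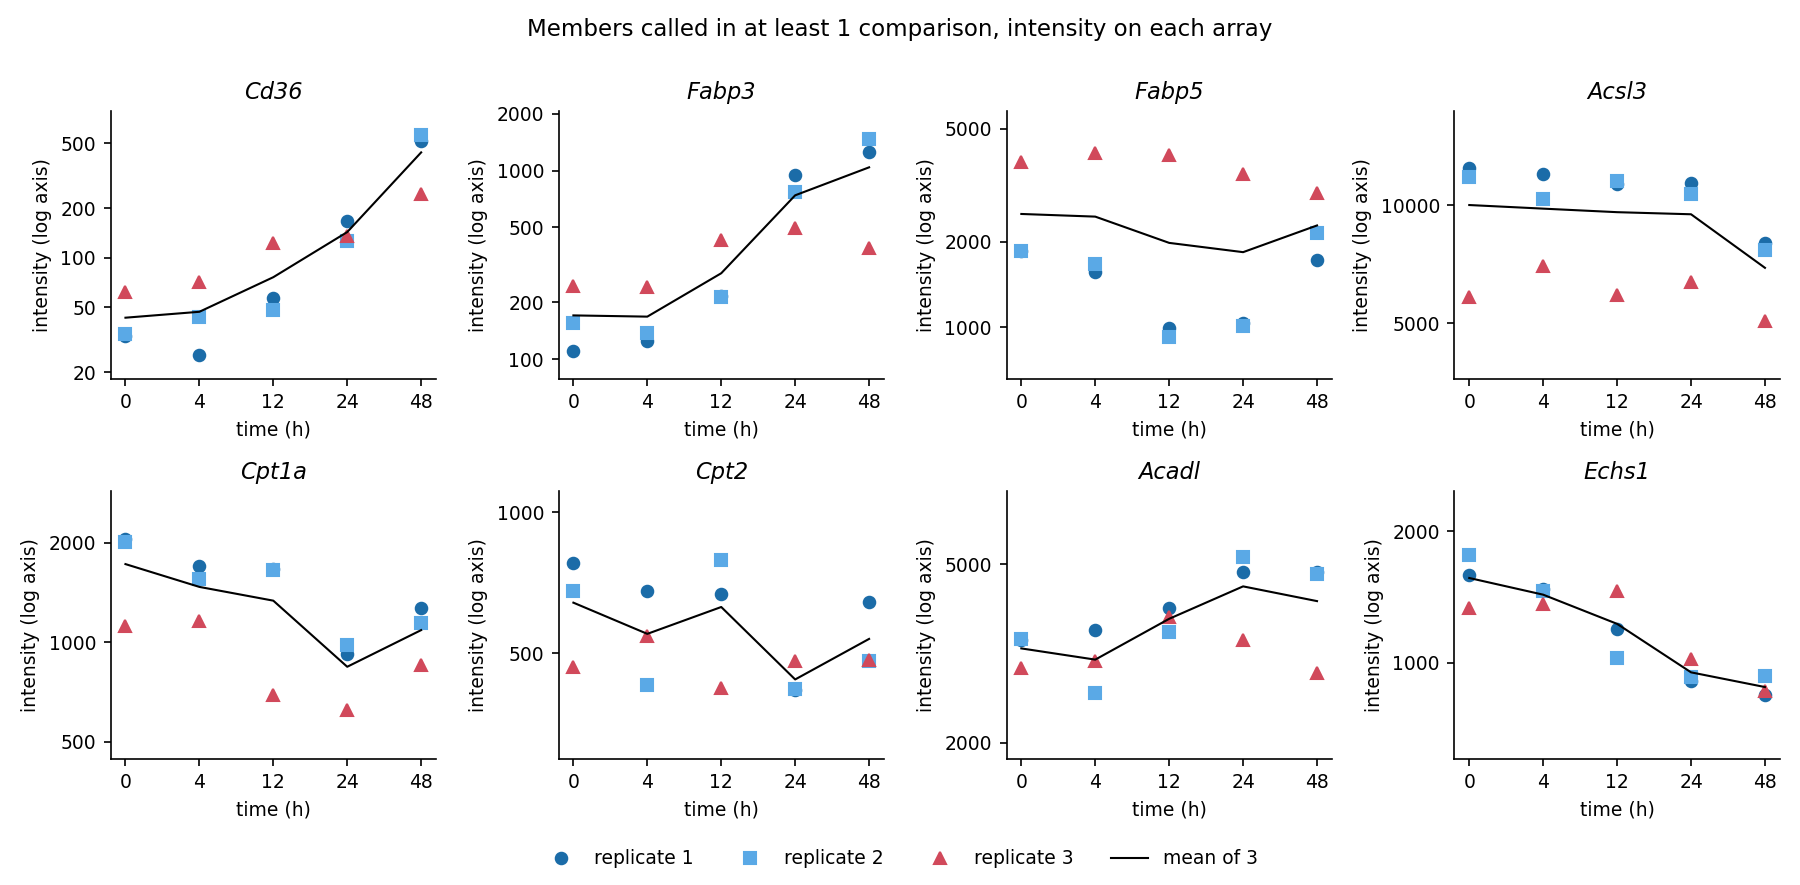
Intensity on each array (log axes) at 0, 4, 12, 24 and 48 h for the 8 genes called in at least 1 comparison with 0 h or between 48 h and 24 h, over all arrays or over replicates 1 and 2 alone. Marks are replicates and the line is the mean of 3. Cd36 and Fabp3 climb and Echs1 falls in all replicates between 0 h and 48 h, whereas Fabp5 and Acsl3 separate replicate 3 from the others at every hour.

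Genes that release fatty acids from triglyceride did not pass the test at any hour. Lpl encodes lipoprotein lipase, which frees fatty acids from circulating lipoproteins. Its intensity in replicates 1, 2 and 3 was 181, 173 and 363 at 0 h, 148, 187 and 514 at 4 h, 222, 161 and 407 at 12 h, 105, 122 and 460.4 at 24 h and 188, 139 and 681 at 48 h. Replicate 3 was above both other replicates at every hour, and the hours overlap. The log2 change was 0.22 at 48 h (SE 0.60, adjusted p = 0.917). Pnpla2, the adipose triglyceride lipase ATGL, averaged 452 ± 119, 546 ± 138, 526 ± 80.8, 493 ± 54.7 and 520 ± 24.7 at 0, 4, 12, 24 and 48 h (SD, n = 3), a log2 change of 0.22 at 48 h (SE 0.20, adjusted p = 0.68). Lipe, the hormone-sensitive lipase, averaged 71 ± 9.7, 74.7 ± 19.6, 63.8 ± 13.1, 76.3 ± 3.68 and 82.6 ± 20.3 at these hours and was below the filter.

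Activation to acyl-CoA was represented by Acsl3 and Acsl4. Acsl3, an acyl-CoA synthetase of the endoplasmic reticulum and lipid droplets, had in replicates 1, 2 and 3 an intensity of 12414, 11783 and 5853 at 0 h, 12033, 10394 and 6994 at 4 h, 11363, 11548 and 5904 at 12 h, 11421, 10661 and 6381 at 24 h and 8028, 7692 and 5062 at 48 h. Replicates 1 and 2 lay between 10394 and 12414 up to 24 h and then dropped, and replicate 3 was lower throughout. Over all arrays the log2 change was -0.48 at 48 h (SE 0.34, adjusted p = 0.579). In replicates 1 and 2 it was -0.62 (SE 0.11, adjusted p = 0.00597), and replicate 3 gave -0.21. With the replicate block it was -0.48 (SE 0.11, adjusted p = 0.0212). Both other chip B probe sets of Acsl3 also had their lowest mean at 48 h, 1396 against 2428 at 0 h for the brighter and 513 against 818 for the dimmer, and neither was called over all arrays (adjusted p = 0.523 and 0.451). Both were lower at 48 h in replicates 1 and 2, by log2 changes of -0.86 (adjusted p = 0.0085) and -0.66 (adjusted p = 0.0401). Acsl4, which prefers arachidonic acid, averaged 622 ± 54.2, 725 ± 123, 760 ± 115, 747 ± 46.3 and 755 ± 132 at 0, 4, 12, 24 and 48 h (SD, n = 3), with a log2 change of 0.26 at 48 h (SE 0.17, adjusted p = 0.535).

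In the carnitine shuttle, the 2 palmitoyltransferases were lower at 24 h in replicates 1 and 2, and Cpt1a also with the replicate block. Cpt1a, the liver form of carnitine palmitoyltransferase 1, which sets the rate of entry into mitochondria, had in replicates 1, 2 and 3 an intensity of 2049, 2007 and 1119.7 at 0 h, 1706, 1549.9 and 1158 at 4 h, 1662, 1655 and 692 at 12 h, 924, 983 and 622 at 24 h and 1271, 1143 and 851 at 48 h. Every array at 24 h lay below every array at 0 h. At 48 h replicates 1 and 2 were above their 24 h values but under their 0 h values, and 48 h overlapped with 0 h. Its mean at 24 h was 0.488 times that at 0 h. Over all arrays it changed by -0.98 log2 units at 24 h (SE 0.32, adjusted p = 0.129) and -0.62 at 48 h (SE 0.32, adjusted p = 0.401). Without replicate 3 it was -1.07 (adjusted p = 0.000104) and -0.74 (adjusted p = 0.00179), and replicate 3 gave -0.82 and -0.38. With the replicate block the log2 changes were -0.98 and -0.62 (SE 0.15 each, adjusted p = 0.000804 and 0.0163). A second chip A probe set of Cpt1a was called at 48 h over all arrays: it averaged 178, 148, 137, 97.8 and 66.4 at 0, 4, 12, 24 and 48 h, with a log2 change of -1.08 (adjusted p = 0.0457). Cpt1b, the muscle form, is not analysed here.

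Cpt2, which turns the carnitine ester back to acyl-CoA inside the mitochondrion, had in replicates 1, 2 and 3 an intensity of 777, 678 and 468 at 0 h, 678, 427 and 543 at 4 h, 669.5, 792 and 420.1 at 12 h, 416, 419 and 482 at 24 h and 644, 480.1 and 484 at 48 h. Replicates 1 and 2 had their lowest values at 24 h, close together, while replicate 3 was lowest at 12 h. The log2 change at 24 h was -0.49 over all arrays (SE 0.24, adjusted p = 0.329), -0.76 in replicates 1 and 2 (adjusted p = 0.0287) and 0.04 in replicate 3. Slc25a20, the carnitine-acylcarnitine carrier, averaged 717 ± 56.4, 712 ± 93.4, 710 ± 49.4, 713 ± 181 and 601 ± 89.8 at 0, 4, 12, 24 and 48 h (SD, n = 3), and Crat, carnitine acetyltransferase, averaged 268 ± 53, 255 ± 12.9, 304 ± 35.6, 340 ± 76.8 and 338 ± 60.6. Their log2 changes at 48 h were -0.25 (SE 0.18, adjusted p = 0.584) and 0.30 (SE 0.19, adjusted p = 0.504). A brighter chip B probe set of Crat averaged 2104, 2199, 2611, 2102 and 1835, with a log2 change of -0.13 at 48 h (adjusted p = 0.868).

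Beta-oxidation enzymes made up 11 of the tested genes, and 1 of them, Echs1, was called at 24 h and at 48 h. Echs1 encodes the short-chain enoyl-CoA hydratase of the matrix, which adds water in the middle of each cycle. Its intensity in replicates 1, 2 and 3 was 1588, 1763 and 1335 at 0 h, 1475, 1458 and 1359 at 4 h, 1196, 1022 and 1462 at 12 h, 906, 927 and 1017 at 24 h and 844, 932 and 862 at 48 h. All arrays at 24 h and at 48 h lay below all arrays at 0 h and at 4 h. The mean was 0.608 times that of 0 h at 24 h and 0.563 times at 48 h. The log2 change was -0.69 at 24 h (SE 0.15, adjusted p = 0.0204) and -0.80 at 48 h (SE 0.15, adjusted p = 0.0126). The other fit, without replicate 3, gave -0.85 and -0.89 with a lower level already at 12 h (-0.59, adjusted p = 0.0296), and replicate 3 gave -0.38 and -0.61 at 24 and 48 h. The call was lost at 24 h without replicate 1 or 2 of 0 h or of 24 h (adjusted p = 0.071 to 0.119), and at 48 h without replicate 1 or 2 of 0 h or of 48 h (adjusted p = 0.0521 to 0.0901). After median centring of the arrays the 24 h change was -0.60 (adjusted p = 0.0554), and with only the arrays of the hours compared the adjusted p was 0.0808 at 24 h and 0.0867 at 48 h. Echs1 had no further probe set annotated to it alone.

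The acyl-CoA dehydrogenases, which open each cycle, did not pass the test over all arrays. Acadl, the long-chain form, had in replicates 1, 2 and 3 an intensity of 3391, 3405 and 2942 at 0 h, 3565, 2583 and 3047 at 4 h, 3997, 3532 and 3807 at 12 h, 4797, 5193 and 3397 at 24 h and 4805, 4744 and 2864 at 48 h. Replicates 1 and 2 were above all 0 h arrays at 24 h and at 48 h, while replicate 3 lay within the range of 0 h at 24 h and below it at 48 h. Over all arrays its log2 change was 0.44 at 24 h and 0.31 at 48 h (SE 0.20 each, adjusted p = 0.296 and 0.515). In replicates 1 and 2 it was 0.55 (adjusted p = 0.0234) and 0.49 (adjusted p = 0.0487), and in replicate 3 it was 0.21 and -0.04. Acadm, the medium-chain form, had in replicates 1, 2 and 3 an intensity of 1967, 1383 and 1434 at 0 h, 1741, 1669.6 and 1255 at 4 h, 1389.9, 1408 and 1451 at 12 h, 1829, 1394 and 1939 at 24 h and 1346, 1724 and 1283 at 48 h. The hours overlap, and its log2 change at 48 h was -0.13 (SE 0.18, adjusted p = 0.815). Acads, the short-chain form, averaged 605 ± 192, 563 ± 179, 530 ± 20.2, 478 ± 56 and 572 ± 102 at 0, 4, 12, 24 and 48 h (SD, n = 3). Acadvl, the very-long-chain form of the inner membrane, averaged 1602 ± 257, 1686 ± 406, 1745 ± 297, 1571 ± 186 and 1426 ± 367. Their log2 changes at 48 h were -0.05 (SE 0.23) and -0.18 (SE 0.22).

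Hadha, the alpha subunit of the trifunctional protein, had in replicates 1, 2 and 3 an intensity of 1181, 1246 and 1399.7 at 0 h, 1147, 1244 and 1142 at 4 h, 1408, 1247 and 1419.7 at 12 h, 1614, 1525 and 1319 at 24 h and 1265, 1285 and 1120.2 at 48 h. The arrays at 24 h overlapped with those at 0 h and lay above those at 48 h. The log2 change was 0.21 at 24 h (SE 0.12, adjusted p = 0.43) and -0.06 at 48 h (SE 0.12, adjusted p = 0.889). Hadhb, its thiolase subunit, averaged 1840 ± 95.5, 2029 ± 109, 1962 ± 109, 1802 ± 271 and 1641 ± 297 at 0, 4, 12, 24 and 48 h (SD, n = 3). Hadh, the dehydrogenase for shorter hydroxyacyl-CoA, averaged 4400 ± 504, 4175 ± 939, 3613 ± 327, 3222 ± 277 and 3282 ± 369. Its arrays at 24 h and at 48 h lay below those at 0 h, with log2 changes of -0.44 (SE 0.16, adjusted p = 0.156) and -0.42 (SE 0.16, adjusted p = 0.201). The other tested probe set of Hadh changed less. It averaged 1532, 1295, 1375, 1305 and 1368, with limma log2 changes of -0.22 at 24 h (adjusted p = 0.471) and -0.15 at 48 h (adjusted p = 0.674).

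The probe sets chosen for the remaining beta-oxidation enzymes stayed within 0.41 log2 units of 0 h at 24 h and 0.26 at 48 h. Acaa2, the mitochondrial thiolase, averaged 582 ± 312, 604 ± 286, 529 ± 275, 411 ± 157 and 523 ± 74.3 at 0, 4, 12, 24 and 48 h (SD, n = 3). Of its other probe sets, 1 had a log2 change at 24 h of -0.73 over all arrays (adjusted p = 0.294) and -0.81 in replicates 1 and 2 (adjusted p = 0.0409), and the other gave -0.36 (adjusted p = 0.45 over all arrays and 0.242 in replicates 1 and 2). Eci1, an enoyl-CoA isomerase for unsaturated fatty acids, averaged 791 ± 46.9, 776 ± 106, 860 ± 145, 727 ± 29.7 and 711 ± 91.2. Decr1, the dienoyl-CoA reductase of the same side path, averaged 1044 ± 129, 1013 ± 169, 961 ± 362, 920 ± 294 and 888 ± 269. For Acaa2 and Decr1 the replicates differed more than the hours did, as given with the comparison of replicates.

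Electron transfer and uncoupling genes gave no calls. Etfa, one subunit of the electron transfer flavoprotein, averaged 2222 ± 136, 2297 ± 124, 2450 ± 62.6, 2562 ± 227 and 2242 ± 111 at 0, 4, 12, 24 and 48 h (SD, n = 3). Etfb, the other subunit, averaged 3319 ± 806, 3144 ± 576, 3238 ± 567, 3136 ± 504 and 2891 ± 646. Etfdh, which hands the electrons to ubiquinone, averaged 623 ± 220, 650 ± 181, 572 ± 56.1, 596 ± 226 and 497 ± 79.6. The log2 changes of these 3 genes ran from -0.27 to 0.01 at 48 h and from -0.09 to 0.20 at 24 h. Ucp3, an uncoupling protein of the inner membrane of muscle mitochondria, had in replicates 1, 2 and 3 an intensity of 118, 128 and 80.8 at 0 h, 71.7, 118 and 126 at 4 h, 130.1, 140 and 85.7 at 12 h, 74.0, 110.2 and 113 at 24 h and 158, 81.2 and 110.5 at 48 h. Its hours overlap, and its log2 change at 48 h was 0.06 (SE 0.25, adjusted p = 0.944). Its mean log2 level of 7.10 was close to the filter's limit of 6.98.

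**Figure D3:**
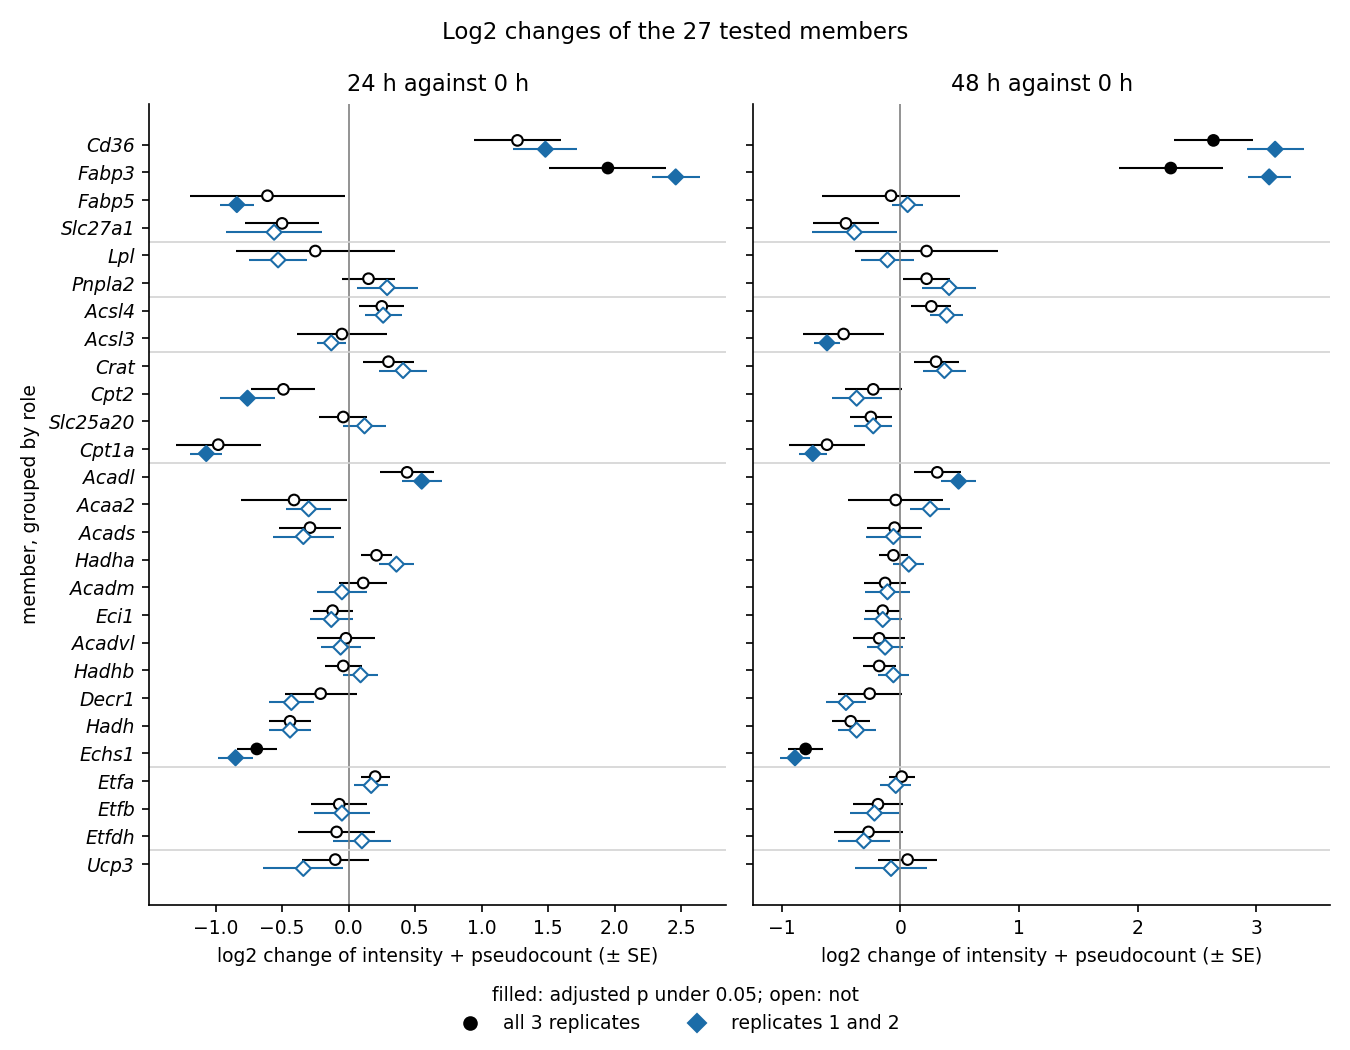
Log2 change (± SE) of the 27 tested genes at 24 h and at 48 h against 0 h, from the fit over all 3 replicates (circles) and over replicates 1 and 2 alone (diamonds), with filled marks for an adjusted p under 0.05 and grey lines between roles. Cd36 and Fabp3 lie far to the right in both panels, and Cpt1a, at -0.98 and -0.62 over all arrays, is filled only in the fit of replicates 1 and 2.

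Replicate 3 differed from replicates 1 and 2 in 12 of the 27 genes over all hours, with hour in the same limma fit. That fit counted the arrays of replicate 3 at the different hours as separate, although they carry the same number and correlated with each other. Its SEs and calls may therefore measure a single unit repeated over the hours. Higher in replicate 3 were 4 (beside 14.9% of all genes): Lpl (log2 difference 1.41, SE 0.14), Fabp5 (1.35, SE 0.14), Acaa2 (0.89, SE 0.12) and Decr1 (0.52, SE 0.11). Lower in replicate 3 were 8 (beside 15.7%): Acsl3 (-0.82, SE 0.07), Cpt1a (-0.73, SE 0.10), Etfdh (-0.52, SE 0.13), Acadvl (-0.45, SE 0.08), Acads (-0.32, SE 0.12), Acadl (-0.29, SE 0.11), Crat (-0.28, SE 0.10) and Acsl4 (-0.26, SE 0.09). Echs1, Fabp3 and Cd36 did not pass that test, with log2 differences of 0.01, -0.01 and 0.20. The dividing cell markers, all 5 higher in replicate 3, moved with this difference, and markers of other cells differed too. Of 3 tested pericyte and smooth muscle markers 1 was higher and 1 lower in replicate 3, and of 2 tested fibroblast markers 0 and 1. The pericyte marker Rgs5 was 2519, 2450 and 118 in replicates 1, 2 and 3 at 0 h and 543, 586 and 43.3 at 48 h. The part of these cells in the difference was not tested. Of the 8 genes called over replicates 1 and 2, 4 (Fabp5, Acsl3, Cpt1a and Acadl) were among the 12 that differed. The same overlap over all tested genes was not counted, so this count has no background.

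**Figure D4:**
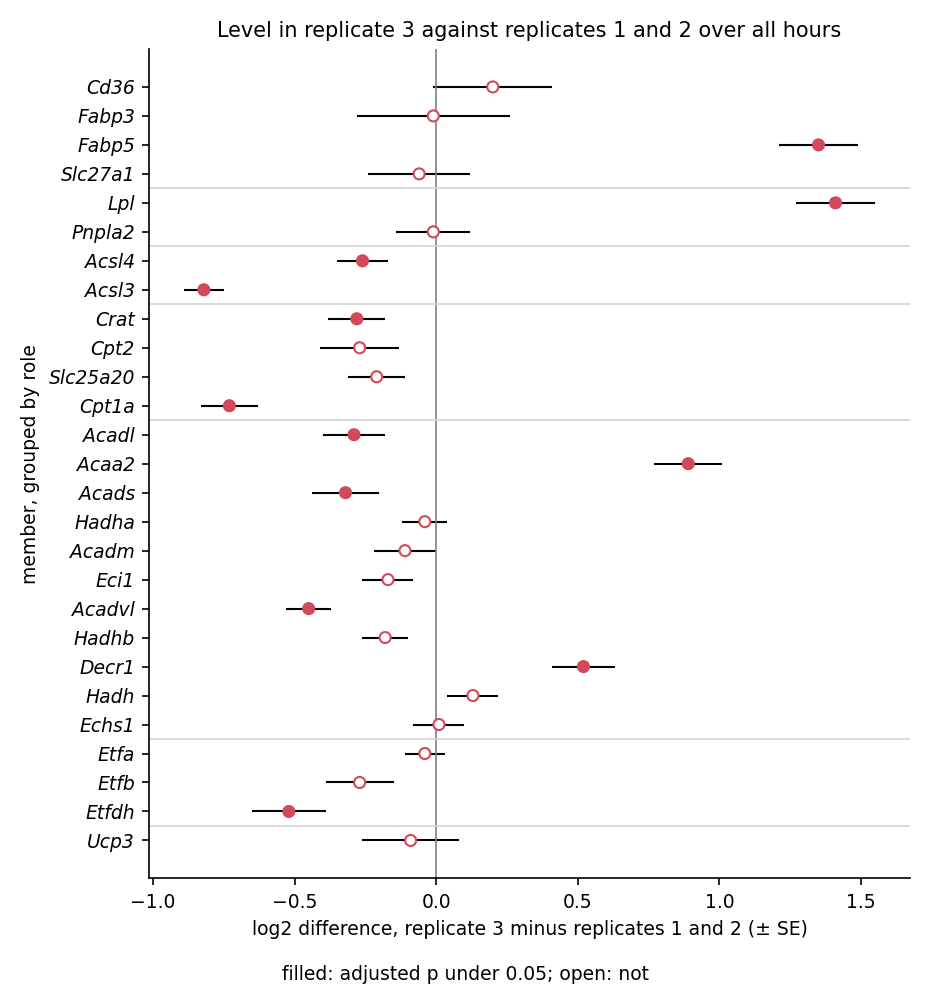
Log2 difference (± SE) between replicate 3 and replicates 1 and 2 over all hours for the 27 tested genes, grouped by role, with filled marks for an adjusted p under 0.05. Lpl (1.41) and Fabp5 (1.35) are farthest right and Acsl3 (-0.82) is farthest left. The fit counted the arrays of replicate 3 as separate.

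Related lists of lipid genes held further changes at single genes. Of 12 tested genes of other uptake and activation, 1 was higher and 1 lower at 24 h, and 1 was higher and 0 lower at 48 h. In replicates 1 and 2, 1 was higher and 3 lower at 24 h, and 2 were higher and 2 lower at 48 h. Over all tested genes those replicates gave 6.23% higher and 7.42% lower at 24 h and 5.38% higher and 6.61% lower at 48 h. All arrays gave 1.65% higher and 0.96% lower at 24 h and 1.33% higher and 0.756% lower at 48 h. These shares are the background for each related list. The share of all genes at an unadjusted p under 0.05 was not counted. Acsl6, an acyl-CoA synthetase known from brain and muscle, had in replicates 1, 2 and 3 an intensity of 139, 124 and 192 at 0 h, 116, 126 and 178 at 4 h, 232, 206 and 262 at 12 h, 502, 506 and 442 at 24 h and 793, 747 and 475 at 48 h. All arrays from 24 h on lay above all arrays at 0, 4 and 12 h. Its log2 change was 1.52 at 24 h (SE 0.21, adjusted p = 0.00333) and 1.94 at 48 h (SE 0.21, adjusted p = 0.000698). Slc27a3, an acyl-CoA synthetase of the FATP family, had in replicates 1, 2 and 3 an intensity of 249.6, 321 and 214 at 0 h, 190.3, 227 and 156 at 4 h, 149, 195 and 141 at 12 h, 82.3, 55.0 and 96.5 at 24 h and 117, 139 and 173 at 48 h. It was lowest at 24 h in all replicates, with a log2 change of -1.44 (SE 0.21, adjusted p = 0.004) there and -0.75 at 48 h (adjusted p = 0.0903). Without replicate 3 it was called at 48 h too (adjusted p = 0.0136). Angptl4, a secreted inhibitor of lipoprotein lipase, averaged 1148, 1191, 1197, 605 and 870 at 0, 4, 12, 24 and 48 h, with a log2 change of -0.90 at 24 h (adjusted p = 0.196 over all arrays and 0.0014 in replicates 1 and 2). Gpihbp1, which anchors that lipase on capillaries, averaged 956, 698, 967, 935 and 786 and was not called.

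Among 20 tested regulators, 1 was higher at 24 h and 2 at 48 h, and 0 were lower at either hour. The fit of replicates 1 and 2 had 3 higher and 1 lower at each of these hours. Prkag3, a muscle gamma subunit of the AMP-activated kinase, had in replicates 1, 2 and 3 an intensity of 981, 927 and 752 at 0 h, 1399, 1138 and 835 at 4 h, 2161, 1848 and 1474 at 12 h, 4117, 2942 and 2234 at 24 h and 2646, 2578 and 1506 at 48 h. It was highest at 24 h in all replicates, with a log2 change of 1.71 there (SE 0.26, adjusted p = 0.00575) and 1.25 at 48 h (SE 0.26, adjusted p = 0.0321). Prkaa2, a catalytic subunit of the same kinase, had in replicates 1, 2 and 3 an intensity of 1066, 979 and 2213 at 0 h, 1061, 1292 and 1660.3 at 4 h, 1405, 1505 and 2818 at 12 h, 3196, 3956 and 3103 at 24 h and 3816, 3984 and 2811 at 48 h. All arrays at 24 h and 48 h lay above all arrays at 0 h, and the log2 change was 1.32 at 24 h (SE 0.30, adjusted p = 0.0553) and 1.36 at 48 h (SE 0.30, adjusted p = 0.042). Without replicate 3 it was called at 24 h too (1.75, adjusted p = 8.04e-05). Pdk4, which blocks pyruvate dehydrogenase, averaged 1661, 1654, 841, 601 and 655 at 0, 4, 12, 24 and 48 h. Its log2 change at 24 h was -1.42 over all arrays (adjusted p = 0.134) and -1.41 in replicates 1 and 2 (adjusted p = 8.28e-05). Rxra, the partner of PPAR receptors, averaged 257, 299, 240, 197 and 228 and was not called. The PPAR genes Ppara, Ppard and Pparg, the ERR gene Esrrb, and Rxrg and Klf15 lay below the filter and were not tested. Of these, Pparg averaged 170, 148, 82.2, 37.1 and 15.3 at the same hours, with 240, 257.8 and 11.8 in replicates 1, 2 and 3 at 0 h. Rxrg averaged 79.4, 36.7, 60.5, 115 and 338, with 423.5, 577.5 and 14.4 in replicates 1, 2 and 3 at 48 h.

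In storage and lipolysis, 12 genes were tested, and 0 were higher and 1 lower at 24 h, with 0 called at 48 h over all arrays by limma. Without replicate 3, 1 was higher and 3 lower at 24 h, and 1 was higher and 4 lower at 48 h. At 48 h, 4 of the 12 had an unadjusted p under 0.05 over all arrays. Plin3, a coat protein of lipid droplets, averaged 641, 547, 466, 410 and 448 at 0, 4, 12, 24 and 48 h and fell at 24 h (log2 change -0.60, adjusted p = 0.0423). Plin2, another droplet coat protein, averaged 2582, 2087, 1953, 1703 and 2258, with a log2 change at 24 h of -0.60 over all arrays (adjusted p = 0.0822) and -0.71 in replicates 1 and 2 (adjusted p = 0.00615). Mgll, the monoglyceride lipase, had in replicates 1, 2 and 3 an intensity of 57.7, 46.9 and 129 at 0 h, 44.9, 102 and 142 at 4 h, 74.7, 41.7 and 175 at 12 h, 216, 231 and 213 at 24 h and 258, 257 and 175 at 48 h. All arrays at 24 h and 48 h lay above all arrays at 0 h, with a log2 change of 1.33 at 48 h (adjusted p = 0.0965 over all arrays and 0.00129 in replicates 1 and 2), and its mean of 77.9 at 0 h lay under the filter's limit. Lpin2, a phosphatidate phosphatase, averaged 686, 651, 655, 435 and 408 and was called in replicates 1 and 2 alone (log2 change -0.74 at 48 h, adjusted p = 0.0332, beside 0.145 over all arrays).

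Over all arrays limma called 0 of 13 genes of peroxisomal oxidation, 0 of 21 of further mitochondrial oxidation and 0 of 17 of the citric acid cycle, at 24 h and at 48 h. An unadjusted p under 0.05 was reached by 1, 3 and 3 genes of these lists at 24 h and by 2, 0 and 3 at 48 h. In replicates 1 and 2 the peroxisomal list had 0 higher and 3 lower at 24 h and 0 higher and 4 lower at 48 h. Amacr, a racemase for branched fatty acids, averaged 560, 543, 568, 545 and 329 at 0, 4, 12, 24 and 48 h, with a log2 change at 48 h of -0.71 over all arrays (adjusted p = 0.108) and -0.79 in replicates 1 and 2 (adjusted p = 0.00523). The peroxisomal thiolase Acaa1a averaged 671, 467, 553, 484 and 418, with -0.68 (adjusted p = 0.197) and -0.99 (adjusted p = 0.00608). Phyh, which starts the alpha-oxidation of phytanic acid, and Pex19, which imports peroxisomal membrane proteins, had the next smallest F test p-values, and Phyh was lower in replicates 1 and 2 (log2 change -0.67 at 24 h, adjusted p = 0.0331). In further mitochondrial oxidation, replicates 1 and 2 gave 2 higher and 1 lower at 24 h, and 2 higher and 0 lower at 48 h. Acat1, the thiolase of ketone body use, averaged 2492, 2222, 3210, 3357 and 2471 and Eci2, a second enoyl-CoA isomerase, 868, 841, 754, 565 and 657, with log2 changes at 24 h of 0.43 (adjusted p = 0.103) and -0.59 (adjusted p = 0.114) over all arrays and 0.55 (adjusted p = 0.0111) and -0.59 (adjusted p = 0.0233) in replicates 1 and 2. The citric acid cycle gave 1 higher and 1 lower at both hours in replicates 1 and 2. Median log2 changes at 48 h over all arrays were -0.23 for the peroxisomal list, -0.09 for further mitochondrial oxidation and -0.12 for the citric acid cycle, beside -0.03 over all tested genes.

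**Figure D5:**
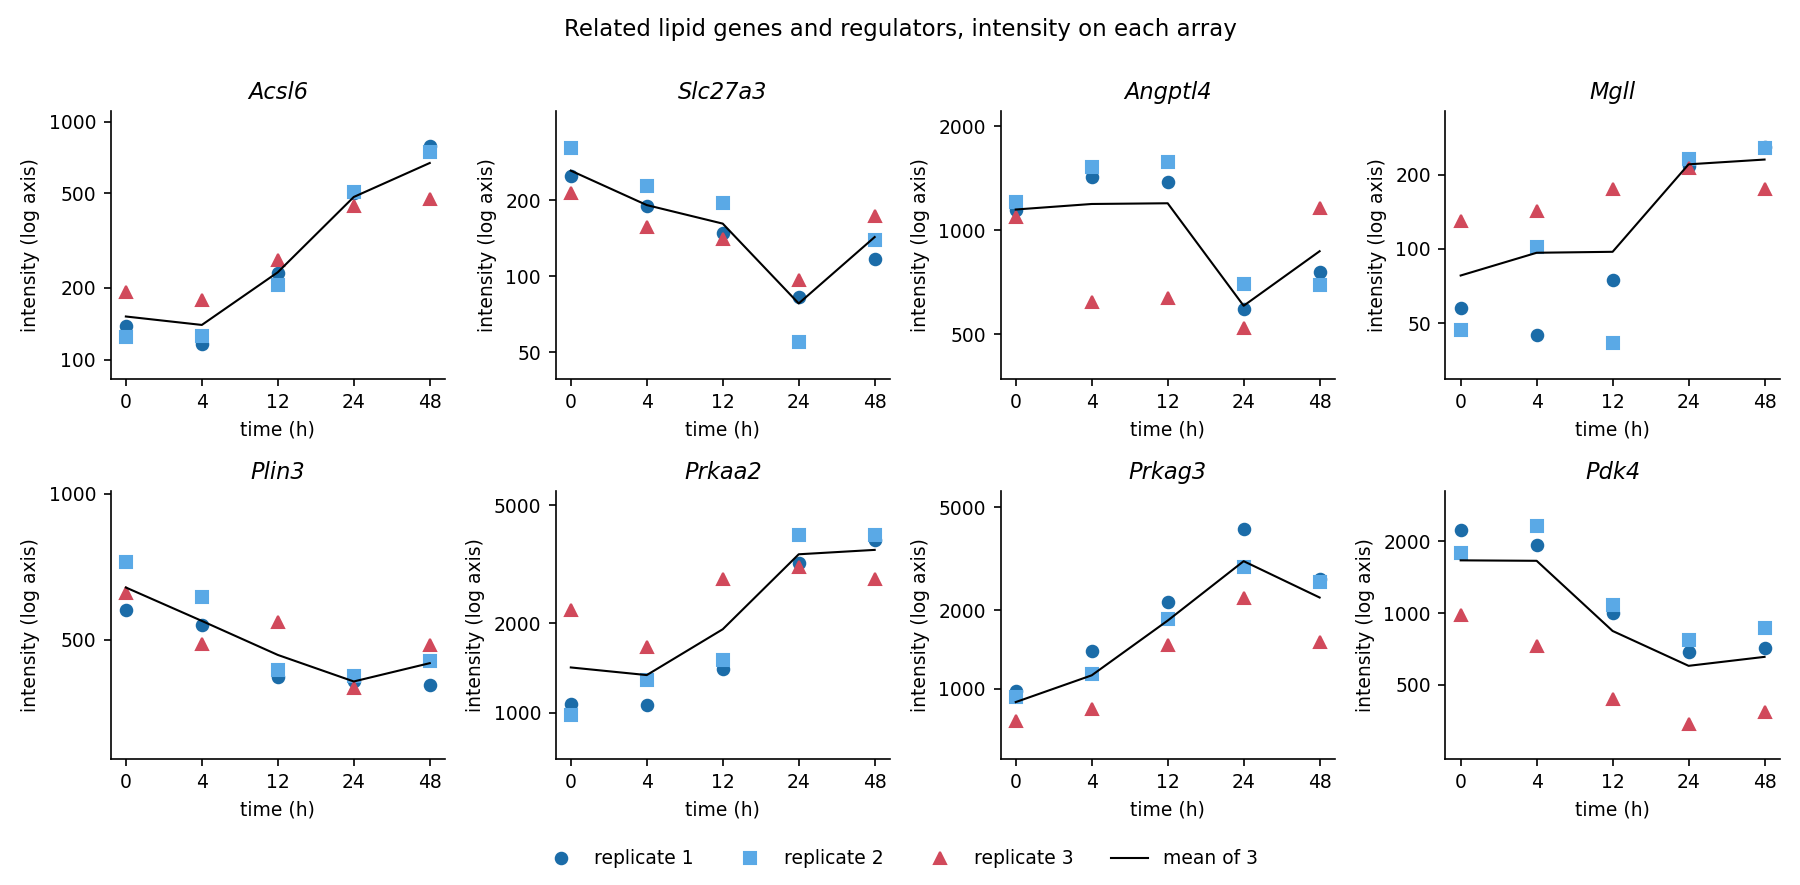
Intensity on each array (log axes) at 0, 4, 12, 24 and 48 h for 8 genes of the related lists, with replicates as marks and the mean of 3 as a line. Acsl6 and Prkaa2 are high at 24 and 48 h, Slc27a3 is lowest at 24 h (mean 77.9), and Pdk4 lies lower in replicate 3 at every hour.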

How the data were processed

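The authors deposited 1 linear intensity per probe set and array. The labels name only the standard Affymetrix protocol. The scanner software, the summary method and the genome build were not given in the sources used here. The intensities themselves had a trimmed mean of 500.1 to 500.2 on each array, so each had been scaled as a whole, and no further scaling was applied. Array medians were 154.7 to 183.4 on chip A and 220 to 256.2 on chip B.

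Intensities were taken to log2 after a pseudocount of 29.4 (A) or 54.4 (B), the 20th percentile of the chip. Probe sets in the upper 60% of mean log2 level were tested (13575 on A, 13506 on B) with limma 3.58.1 in R 4.3.3, per chip over 15 arrays, with hour as the factor and eBayes with trend. P-values were two-sided and adjusted by Benjamini-Hochberg within chip, with calls under 0.05. Replicates 1 and 2 alone kept the same probe sets.

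Names came from GEO's platform annotation, and promoters from RefSeq. All members were named, with each array's value for called members and Fabp4, Lpl, Acadm, Hadha and Ucp3, and up to 4 genes per related list by F test p. Members, lists and tests were chosen with earlier results of these data known.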

Additional observations from a re-analysis of the deposited data

How the results depend on the processing

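Cd36 at 48 h kept its direction and its call under every alternative that tested it, with log2 changes from 1.75 (4 times the pseudocount) to 3.16 (replicates 1 and 2 alone) and adjusted p up to 0.0325. The upper 40% filter left Cd36 untested. Over replicates 1 and 2 alone the counts of called genes were 2 at 12 h, 7 at 24 h, 6 at 48 h, 3 between 48 h and 24 h, and 7 in the F test. With only the arrays of the hours compared, 1 was called at 48 h (Fabp3 had an adjusted p of 0.0825 and Echs1 of 0.0867), and with the brightest probe set over both chips 1 was called at 24 h. Leaving out single arrays or replicate 3 gave 0 to 2 calls at 12 h, 0 to 7 at 24 h, 1 to 6 at 48 h, 0 to 3 between 48 h and 24 h, and 1 to 7 in the F test. Quantile normalization, a smaller pseudocount, no filter and eBayes without trend left every such count within 1.5 times. Directions turned for 3 genes: Acsl3 at 24 h ranged from -0.39 to 0.22 with single arrays left out, Fabp5 at 48 h from -0.29 to 0.26 with single arrays left out and was 0.06 without replicate 3, and Fabp3 at 24 h was -0.05 on its chip B probe set, which is the brighter. The cause was not tested.

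With the replicate number as a block (replicate block), 4 genes were called at 24 h, 5 at 48 h, 1 between 48 h and 24 h, and 5 in the F test, beside 11%, 8.47%, 2.19% and 11.3% of all genes. The genes gained were Cd36 (adjusted p = 0.0171) and Cpt1a (0.000804) at 24 h, and Cpt1a (0.0163) and Acsl3 (0.0212) at 48 h. The labels do not say that a number marks a shared culture. Deviations of same-numbered arrays correlated over 0.1 in 9, 10 and 10 of 10 pairs for replicates 1, 2 and 3 on chip A, and in 5, 8 and 10 on chip B, with replicate 3 highest (0.48 to 0.73 and 0.23 to 0.43). As not every pair did, the numbers were not taken to pair the arrays. Differences between replicates therefore stayed in the error of the fit over all arrays. On chip A, 3, 3 and 5 of the 5 arrays of replicates 1, 2 and 3 correlated best with their own number, and on chip B 2, 2 and 5.

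Signal limits dim genes: Fabp4 and Lipe were below the filter, and the mean of Cd36 at 0 h (43.1) lay under its limit of 96.7.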
